A study of Mus musculus with 6 samples.

Results

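The genes described here are 9 transcription factors of the forebrain and anterior neural plate, Pax6, Six3, Rax, Lhx2, Lhx5, Fezf1, Fezf2, Otx1 and Hesx1. They were chosen by symbol, taking every probe set that the platform annotation gives to exactly 1 of these symbols, which gave 15 of the 45037 probe sets and 9 of the 18193 genes on the array. The samples were cultures of mouse embryonic stem cells that had been kept for 2 days in N2B27, a defined medium without serum that lets them take on neural fate. The cells derived from the line E14TG2a on a 129P2 background and carried an inducible short hairpin, built into a microRNA (shRNAmir), that targets Gmnn. Gmnn is the gene of Geminin, which binds the replication licensing factor Cdt1 and also acts on transcription in the early neural lineage. Geminin knockdown cultures (GemKD) received doxycycline (Dox), 500 ng as the labels give it, and uninduced controls of the same line received no Dox. There were 3 independent experiments with 1 GemKD and 1 uninduced array each. The hairpin was shRNAmir 11 in experiments 1 and 3, and shRNAmir 9 in experiment 2. Every GemKD culture also had Dox and every uninduced culture had none, so effects of Dox and of the knockdown cannot be told apart.

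The anterior neural plate forms the telencephalon, the eye field and the hypothalamus. Pax6, Six3 and Rax encode homeodomain proteins of the eye field and forebrain, and Lhx2 and Lhx5 encode LIM homeodomain proteins of the early forebrain. Fezf1 and Fezf2 encode related zinc finger repressors of the forebrain. Otx1 and Hesx1 encode homeodomain proteins of the anterior brain and the pituitary.

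Gmnn itself was lower in GemKD in each experiment. Its signal was 983, 1669 and 1270 in the GemKD arrays of experiments 1, 2 and 3 and 3558, 3477 and 3463 in their controls, so GemKD carried 27.6%, 48% and 36.7% of the control signal. The groups did not overlap (exact two-sided permutation p = 0.1, the smallest that 3 arrays against 3 allow). The log2 fold change of Gmnn was -1.44 (SE 0.17), with a limma adjusted p of 0.338 without a block and 2.76e-06 when arrays were blocked by experiment, and between 2.76e-06 and 0.99997 over all alternatives. The neurectoderm named by the labels was checked on its markers. Sox1 had a signal of 2318 on average in experiments 1 and 2 and 550 in experiment 3, Sox2 had 5862 and 5183, and Nes had 255 and 274. Not all neurectoderm markers were bright. Hes5 had 23 and 16.4, Hes3 had 51.1 and 47.2, Fabp7 had 57.3 and 126, and Olig3 had 227 and 8.89. The pluripotency factor Pou5f1 was bright in the same cultures, at 7509 and 7371. The arrays of experiment 3 stood apart from the other 4 in both arms, with 4910 of 14185 genes called different (34.6%, with 12.1% higher and 22.6% lower), so the values of the 9 factors are given for each experiment.

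The first question was which of the 9 factors were measured above background after 2 days. Detection calls were not used here, so a factor was counted as near background where the mean signal of its brightest probe set fell under a limit of 20.1, the 30th percentile over the array. By that measure 5 of the 9 factors, Six3, Rax, Fezf1, Otx1 and Hesx1, lay near background, and 4, Pax6, Lhx2, Lhx5 and Fezf2, lay above it. A stricter guide came from 44 probe sets of olfactory receptor genes, which encode odorant receptors of sensory neurons and whose 95th percentile was a signal of 61. Only Pax6 and Lhx2 among the 9 factors exceeded that level, so Lhx5 and Fezf2 were measured at the level of some olfactory receptor probe sets.

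**Figure D1:**
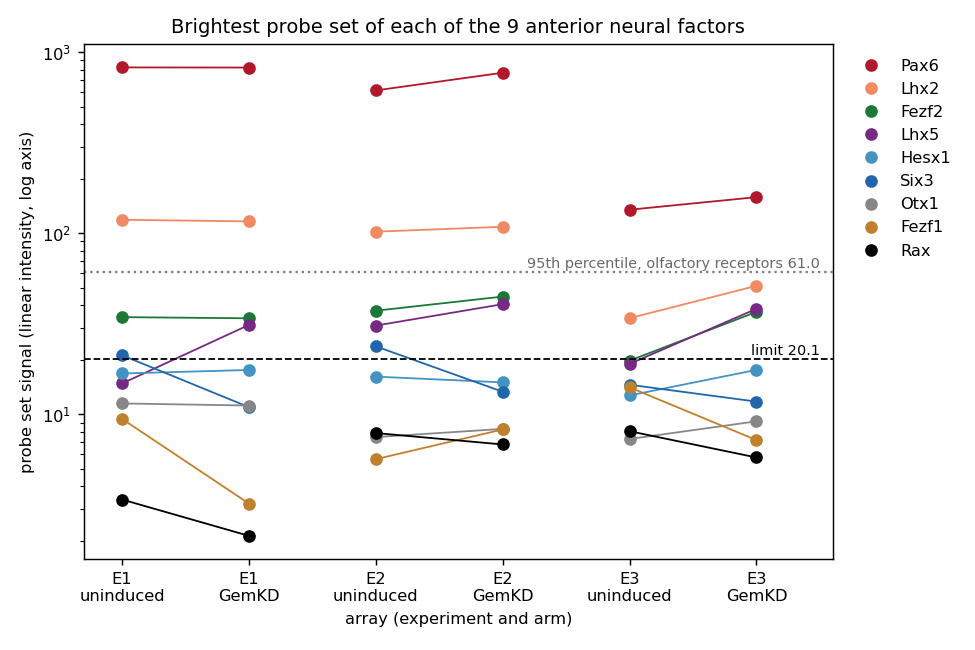
Signal of the brightest probe set of each factor (log axis) on the 6 arrays, with a line joining the uninduced and GemKD arrays of an experiment (E1, E2, E3). Pax6 and Lhx2 lie above the dotted line of the olfactory receptors at 61 in experiments 1 and 2, Lhx2 lies below it in experiment 3, and 5 factors lie mostly below the dashed limit of 20.1.

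Pax6 was the brightest of the factors. Its brightest probe set, 1419271_at, had signals of 821 and 823 in the GemKD and uninduced arrays of experiment 1, 769 and 614 in experiment 2, and 158 and 135 in experiment 3. Both arrays of experiment 3 were low, and no array of experiments 1 and 2 came near them. Lhx2, with 1 probe set (1418317_at), had signals of 116 and 119 in the GemKD and uninduced arrays of experiment 1, 108 and 102 in experiment 2, and 51.2 and 33.9 in experiment 3. The order was the same as for Pax6, with both arrays of experiment 3 below the other 4. The probe sets' own signals do not rank the 2 genes by transcript level, since probe sets differ in brightness.

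The dim factors above the limit had 1 probe set each. Fezf2 had signals of 33.9 and 34.4 in the GemKD and uninduced arrays of experiment 1, 44.6 and 37.3 in experiment 2, and 36.8 and 19.8 in experiment 3. The uninduced array of experiment 3 was the lowest and lay just below the limit. Lhx5 had signals of 31.2 and 14.8 in the GemKD and uninduced arrays of experiment 1, 40.5 and 30.9 in experiment 2, and 38.2 and 19 in experiment 3. The uninduced arrays of experiments 1 and 3 lay below the limit, and the 3 GemKD arrays lay above the 3 uninduced ones.

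The other 5 factors gave little signal on any array. Six3, a factor needed for the forebrain and the eye, had 3 probe sets, and the brightest (1427523_at) ran from 10.9 to 23.7. The other Six3 probe sets ran from 1.10 to 14.2 and from 1.93 to 8.79, below the limit on all 6 arrays. Hesx1, a repressor of the anterior neural plate and pituitary, ran from 12.7 to 17.6, the closest to the limit from below, with a mean of 16 against 29.1 for Lhx5 just above it. Otx1 ran from 7.30 to 11.5 and Fezf1 from 3.21 to 14.1. Rax, an eye field factor needed for eye formation, ran from 2.13 to 8.06. Of the 15 probe sets, 4 were above the limit on all 6 arrays and 6 were below it on all 6. All 4 were probe sets of Pax6 (3) or Lhx2 (1).

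The second question was how experiment 3 stood beside experiments 1 and 2. Pax6 and Lhx2 were both lower in experiment 3, and Fezf2 and Lhx5 did not pass the test. Pax6 averaged 757 ± 98.4 (SD, n = 4 arrays) in experiments 1 and 2 and 146 over the 2 arrays of experiment 3, which is 19.3% of the former. Its log2 difference was -2.24 (SE 0.11, 95% interval -2.48 to -2.01, limma adjusted p = 8.02e-08). Lhx2 averaged 111 ± 7.58 (SD, n = 4 arrays) and 42.6, which is 38.2%, with a log2 difference of -1.13 (SE 0.14, -1.45 to -0.82, limma adjusted p = 1.20e-04). Both calls were made in each of the 16 alternatives run, but the size depended on 2 of them: the log2 difference of Pax6 was -1.16 as the mean of its 5 probe sets, and that of Lhx2 was -0.72 with a pseudocount of 64.

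Fezf2 had 37.5 and 28.3 on average in experiments 1 and 2 and in experiment 3, a log2 difference of -0.30 with a 95% interval from -0.71 to 0.12 (limma adjusted p = 0.253). Lhx5 had 29.3 and 28.6, a log2 difference of -0.02 with an interval from -0.49 to 0.45 (limma adjusted p = 0.945). Of all genes tested 22.6% were called lower in experiment 3, against 2 of the 4 factors tested, and in 31% both arrays of experiment 3 lay below the other 4, again against 2 of 4. Experiment 3 is 1 experiment, so these p-values compare its 2 arrays with the other 4 and do not cover the spread between experiments. The difference was as large against experiment 1 alone, which shares shRNAmir 11, at -2.37 for Pax6 and -1.20 for Lhx2.

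The 5 Pax6 probe sets did not move alike. Probe set 1452526_a_at averaged 203 in experiments 1 and 2 and 34.6 in experiment 3, with a log2 difference of -2.09 (adjusted p = 1.05e-05 in limma over all 31526 probe sets above the limit). Probe set 1425960_s_at averaged 64.4 and 18.3, with -1.22 (adjusted p = 3.74e-04). In contrast, 1437816_at averaged 81.3 and 84.4, with 0.05 and a 95% interval from -0.30 to 0.39 (adjusted p = 0.862), which holds none of the other 3 values. The fifth, 1456342_at, ran from 4.71 to 22.2 and was below the limit on average. Thus 3 of the 4 Pax6 probe sets above the limit were lower in experiment 3, where 16.7% of all such probe sets were. The annotation gives all 5 the same symbol. What part of the Pax6 transcripts each probe set reads was not analysed here.

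**Figure D2:**
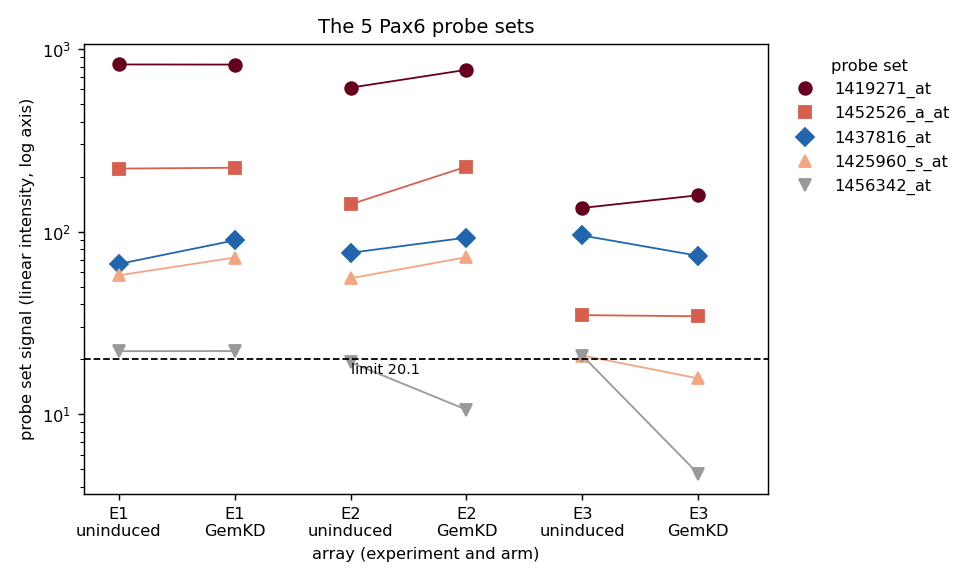
Signal of each of the 5 Pax6 probe sets (log axis) on the 6 arrays, with a line joining the arrays of an experiment (E1, E2, E3) and the limit of 20.1 dashed. Probe sets 1419271_at, 1452526_a_at and 1425960_s_at are low in both arrays of experiment 3, while 1437816_at stays between 66.5 and 95.1.

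The promoters of Pax6 and Lhx2 are shown because these were the factors that were low together in experiment 3. RefSeq windows, from 250 bases before to 50 after a start of transcription in GRCm38.p6, were at hand for 6 of the 9 factors (not Lhx5, Otx1 and Rax), with 2 windows each for Pax6 and Lhx2. The windows below are those of the upstream start of each gene, on the plus strand, at chr2:105668646-105668945 for Pax6 and chr2:38339031-38339330 for Lhx2. Capitals mark matches on either strand to any of 7 motifs: the CCAAT box (CCAAT), the GC box (GGGCGG), the TATA box (TATAAA), the cyclic AMP response element (TGACGTCA), a homeodomain site (TAATTA), a Sox site (ACAAT) and the octamer (ATGCAAAT).
Pax6: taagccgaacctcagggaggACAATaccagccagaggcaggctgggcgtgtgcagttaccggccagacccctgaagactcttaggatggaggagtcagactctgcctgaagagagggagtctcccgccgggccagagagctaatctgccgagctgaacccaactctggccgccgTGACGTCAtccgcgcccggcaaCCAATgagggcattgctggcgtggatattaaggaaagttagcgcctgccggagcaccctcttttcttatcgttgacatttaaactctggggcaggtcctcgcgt
Lhx2: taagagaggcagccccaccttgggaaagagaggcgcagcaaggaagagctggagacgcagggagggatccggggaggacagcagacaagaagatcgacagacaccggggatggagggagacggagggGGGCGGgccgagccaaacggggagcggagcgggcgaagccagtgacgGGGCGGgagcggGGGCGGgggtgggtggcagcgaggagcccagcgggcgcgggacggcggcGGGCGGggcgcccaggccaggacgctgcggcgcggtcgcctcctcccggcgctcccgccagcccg

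The Pax6 window held 1 Sox site, 1 cyclic AMP response element and 1 CCAAT box, none overlapping, and had 58.7% G and C. Of 32851 mouse windows of this length 31% held a Sox site, 1.79% a cyclic AMP response element and 37.4% a CCAAT box. The Lhx2 window held 4 GC boxes, a motif present in 35.7% of windows, and had 74.7% G and C, more than 95.8% of windows. It had none of the other 6 motifs, and the downstream windows of both genes had none of the 7. The 2 windows had no searched motif in common.

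Other genes of the forebrain and eye field, from a fixed list of 22 of which 20 were on the array and 12 were tested, moved both ways in experiment 3. Of the 12, 3 were called higher and 3 lower, with a median log2 difference of 0.12 against -0.04 over all genes tested. The shares called over all genes tested were 12.1% higher and 22.6% lower. Sp8, a zinc finger factor of the anterior neural ridge, was lower as Pax6 was, from 191 ± 22.1 (SD, n = 4 arrays) to 37.7, a log2 difference of -1.94. Emx2, a factor of the dorsal telencephalon, was also lower (-0.93), at 30.6 in experiments 1 and 2 and 8.43, below the limit, in experiment 3. Otx2, the paralogue of Otx1 and a factor of both epiblast and anterior brain, was higher, from 1458 ± 255 to 2759, a log2 difference of 0.93. Gsx1, a homeodomain factor of ventral progenitors, was higher too (1.11), from 63 to 153. As with the 9 factors, several of the list had no signal above the limit on any array, 7 of 20, among them Nkx2-1, Nr2e1, Dlx1 and Tbr1.

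In experiment 3, 22.6% of all genes tested were called lower and 12.1% higher. Factors of the midbrain, hindbrain and posterior neural tube were lower in 8 of 14 tested and higher in 0. Their median log2 difference was -0.76, against -0.04 over all genes tested. With the experiment as a block, against experiment 1 alone, 1 was called higher, the hindbrain factor Egr2 (log2 0.73, limma adjusted p = 0.0418, against 0.59 and 0.0637 without the block). Gbx2, a factor of the anterior hindbrain that is also expressed in pluripotent cells, averaged 2305 ± 238 (SD, n = 4 arrays) in experiments 1 and 2 and 789 in experiment 3 (log2 -1.53). Hoxb1 went from 190 ± 64 to 6.60, Hoxb2 from 216 ± 66.1 to 11.3 and Hoxa2 from 58.1 ± 10.8 to 13.9, all below the limit in experiment 3. The arrays low for Pax6 and Lhx2 were thus low for these posterior genes too. Whether the Pax6 signal came from cells of forebrain identity was not tested.

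Some markers of cell state also differed in experiment 3, in both directions. Others were level, such as Nes (log2 difference 0.10), Zic2 (0.04), Pou5f1 (-0.03) and Esrrb (-0.02). Over all genes tested 22.6% were called lower and 12.1% higher. Of 12 neurectoderm markers, 5 were lower and 3 higher in experiment 3, with a summed signal of 15820 to 16038 on the arrays of experiments 1 and 2 and of 15649 to 16312 on those of experiment 3. Sox1, an early neural factor, was at 23.7% of its level in experiments 1 and 2 (log2 -2.04), and Olig3, a dorsal neural tube factor, went from 227 to 8.89. Pou3f1, a POU factor of epiblast and neural precursors, was higher, from 3207 to 6191 (0.95, limma adjusted p = 1.09e-06), so the level sum held changes in both directions. Fabp7, a radial glia gene, was higher as well (0.97). Of 11 pluripotency markers, 7 were lower and 1 higher, with summed signals of 22783 to 25244 and of 17107 to 18014. Nanog was at 15.5% (log2 -2.61), Klf4 at 23.7% and Zfp42 at 43.6%, and Fgf5, a primed epiblast marker, was at 489% (2.17). Endoderm markers summed to between 501 and 679 and between 585 and 599, with 1 of 8 called lower. Primitive streak and mesoderm markers summed to between 768 and 887 and between 685 and 711, with 1 of 4 called lower, and Mixl1, Gsc and Kdr were below the limit on all 6 arrays. Fibroblast markers summed to between 1341 and 1529 and between 722 and 788, with 4 of 7 called lower and 1 higher. With the block, against experiment 1 alone, Fgf4 was also called higher (log2 0.45, limma adjusted p = 0.00171) and Eomes lower (-0.39, 0.0237). The part of these differences in the lower Pax6 and Lhx2 was not tested. In such bulk samples, fewer cells of a type and less RNA per cell cannot be told apart.

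**Figure D3:**
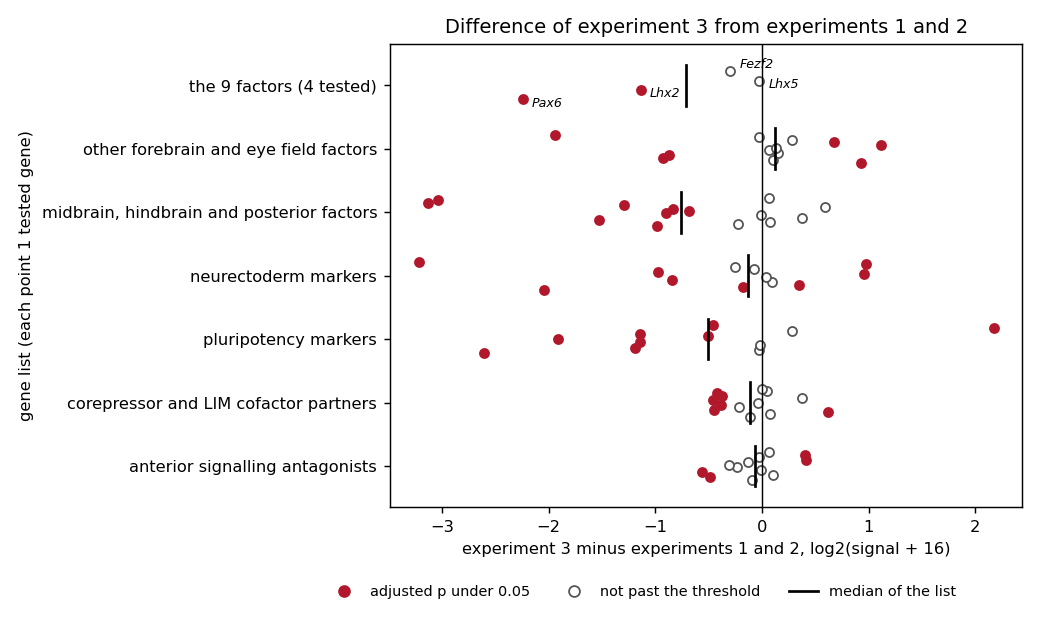
Log2 difference of experiment 3 from experiments 1 and 2 (x axis) for each tested gene of 7 lists (y axis), filled where the limma adjusted p was under 0.05, with a bar at the median of the list. Pax6 (-2.24) and Lhx2 (-1.13) lie left of 0, other forebrain factors lie on both sides, and the called posterior factors all lie on the left.

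Proteins that work with these factors were compared as well. LIM homeodomain proteins such as Lhx2 and Lhx5 act through Ldb1 and its Ssbp partners and are held back by Lmo proteins, and Six3, Hesx1 and the Fezf proteins repress through the Tle corepressors. Of 13 tested genes of this list, 5 were lower and 1 higher in experiment 3, with a median log2 difference of -0.12. Over all genes tested 22.6% were called lower and 12.1% higher, with a median of -0.04. Tle3 was higher (0.62, from 400 to 623), and Tle4 (-0.45), Lmo1 (-0.46) and Ssbp2 (-0.42) were lower. The call of Lmo1 was not made with the experiment as a block, against experiment 1 alone (limma adjusted p = 0.0514). Of 12 tested antagonists of posteriorizing signals and related anterior genes, 2 were higher and 2 lower, with a median of -0.06. These counts are close to the shares over all genes. The Wnt antagonist Sfrp1 went from 299 to 195 (-0.56) and the dimmer Dkk3 from 47.9 to 29.1 (-0.49, a call not made with the experiment as a block, adjusted p = 0.0744), while Shisa2 (0.41) and the activin antagonist Fst (0.40) were higher.

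The third question was whether the knockdown changed the factors. Of the 4 tested, 0 passed in limma in either fit (without a block, or blocked by experiment), and 1 of them, Lhx5, had an unadjusted p under 0.05 in both. Over all genes tested 0.00705% were called without and 0.0352% with the block. An unadjusted p under 0.05 was found for 123 of the 14185 genes without and for 675 with the block. Without the block, differences between experiments enter the error of the knockdown fit, and Gmnn itself was not called in it. The absence of a call there does not show that a factor was unchanged. All 4 had a positive log2 fold change, with a median of 0.21, against 0.002 over all genes, of which 7262 of 14185 were positive. The arrays are the same as in the comparison of experiments, so the 2 sets of values are not independent.

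Lhx5 had the largest difference of the 4. Its mean signal was 21.5 ± 8.34 in the uninduced and 36.6 ± 4.89 in the GemKD arrays (SD, n = 3), and the log2 ratios were 0.61, 0.27 and 0.63 in experiments 1, 2 and 3. In the fit without a block this gave a log2 fold change of 0.51 (SE 0.20, 95% interval 0.05 to 0.97, unadjusted p = 0.035, adjusted p rounding to 1 in limma). Leaving out 1 array or 1 experiment moved the unadjusted limma p of Lhx5 to between 0.00895 and 0.12. The GemKD arrays all lay above the uninduced ones, as was the case for 2.09% of genes tested. Among the 2998 tested genes dimmer than the median probe set, 95% had log2 ratios between -0.64 and 0.60 in experiment 1, between -0.66 and 0.60 in experiment 2 and between -0.85 and 0.82 in experiment 3. Lhx5 thus lay just above that range in experiment 1 and inside it in experiments 2 and 3.

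Pax6 was level between the arms in experiment 1 and higher in the GemKD array of experiments 2 and 3, at 125% and 117% of the control. Its log2 ratios were -0.003, 0.32 and 0.21 in experiments 1, 2 and 3, and the fold change was 0.17 with a 95% interval from -0.01 to 0.36 with the experiment as a block (SE 0.09, against 0.79 without it). The other Pax6 probe sets above the limit had ratios of 0.01, 0.63 and -0.01 (1452526_a_at), 0.36, 0.23 and -0.31 (1437816_at), and 0.26, 0.31 and -0.22 (1425960_s_at). All 4 were higher in GemKD in experiment 2, and they differed in sign in experiments 1 and 3.

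Lhx2 had log2 ratios of -0.03, 0.08 and 0.43 in experiments 1, 2 and 3, with a fold change of 0.16 (blocked interval -0.14 to 0.46). Fezf2 had ratios of -0.01, 0.19 and 0.56, with a fold change of 0.24 (blocked interval -0.15 to 0.64). In both the ratio was near 0 in experiment 1 and highest in experiment 3, where the uninduced array was the lowest of the 6. The sign of the unblocked fold change depended on single arrays: without the uninduced array of experiment 3 it was -0.29 for Lhx2 and -0.58 for Pax6, without the GemKD array of experiment 1 it was -0.02 and -0.22, and without the GemKD array of experiment 2 it was 0.03 and -0.17. Leaving out the GemKD array of experiment 3 gave 0.47 and 0.91, and the uninduced array of experiment 1 gave 0.43 and 0.66. Each of these fits lacked 1 arm of an experiment, so differences in level between experiments entered the fold change. With the whole of experiment 1, 2 or 3 left out it stayed positive. It was then 0.25, 0.20 and 0.03 for Lhx2 and 0.26, 0.10 and 0.16 for Pax6.

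Whether the knockdown ratio differed in experiment 3 was tested by an interaction term. None of the 4 factors passed in limma, and 0.0141% of all genes were called. An unadjusted p under 0.05 was found for 0 of the 4 and for 1529 of the 14185 genes tested. The difference of the ratio of experiment 3 from that of experiments 1 and 2 was 0.05 for Pax6 (95% interval -0.45 to 0.56), 0.40 for Lhx2 (-0.17 to 0.97), 0.47 for Fezf2 (-0.31 to 1.26) and 0.19 for Lhx5 (-0.82 to 1.20). These intervals are wide and do not show that the ratios were alike. In limma over all probe sets, the other Pax6 probe sets above the limit had -0.34 (1452526_a_at), -0.50 (1425960_s_at) and -0.60 (1437816_at). The last had an unadjusted limma p of 0.0362 and an adjusted p of 0.501.

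**Figure D4:**
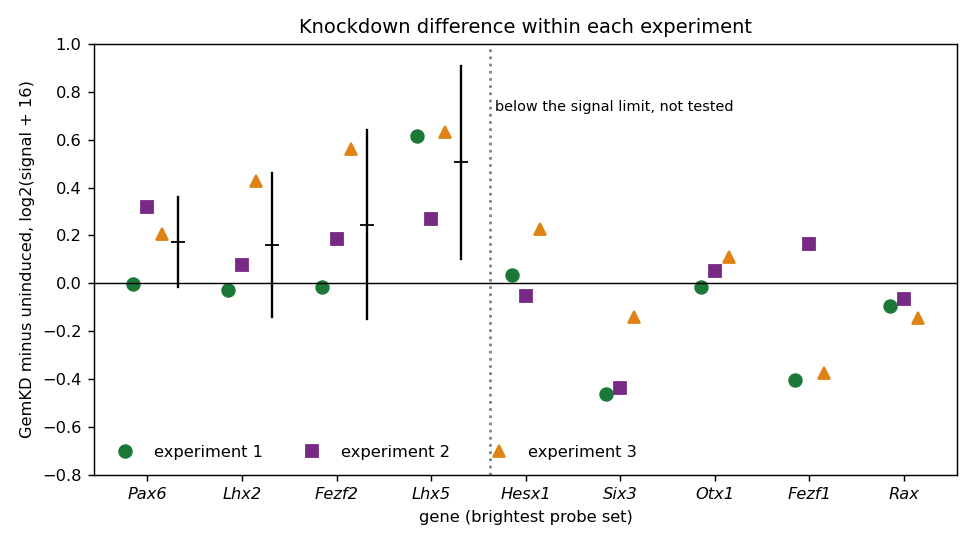
Log2 difference between the GemKD and uninduced arrays of each experiment (y axis) for the brightest probe set of each factor (x axis). Black bars give the mean and its 95% interval with the experiment as a block for the 4 factors tested, and the interval of Lhx5 lies between 0.10 and 0.91 before adjustment.

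Among the factors near background, which were not tested in the main comparison, the brightest Six3 probe set was lower in all 3 experiments, with log2 ratios of -0.46, -0.44 and -0.14. Its GemKD signals (10.9, 13.3 and 11.7) lay below its uninduced signals (21.2, 23.7 and 14.6), as those of 2.95% of all 18193 genes did. Tested without the limit on signal, Six3 had a log2 fold change of -0.35 (unadjusted p = 0.0462, adjusted p rounding to 1 in limma). The other Six3 probe sets did not share the direction, with ratios of -0.08, -0.82 and 0.02 and of 0.27, -0.39 and 0.01. Rax had ratios of -0.10, -0.07 and -0.14, Otx1 of -0.02, 0.05 and 0.11, Hesx1 of 0.03, -0.05 and 0.23, and Fezf1 of -0.40, 0.16 and -0.37. All these signals were close to the floor of the scale, where a pseudocount of 16 holds ratios near 0.

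Related genes showed no call by the knockdown either. Of 12 tested forebrain and eye field genes 6 were positive and 6 negative (median log2 fold change -0.04), of 14 posterior factors 11 were positive (0.12), of 13 cofactor genes 9 were positive (0.08) and of 12 antagonists 6 were (-0.02). In both limma fits 0 of these genes passed. The largest in each list were Vax1 (-0.50, from 39.9 ± 16.3 to 22.3 ± 1.93, SD, n = 3), Hoxb1 (0.57, from 96.1 ± 87.3 to 161 ± 133), Tle5 (0.22, from 94.4 ± 3.86 to 114 ± 19.7) and Chrd (0.55, from 42.6 ± 32.1 to 62.2 ± 4.83). Of 12 neurectoderm markers 8 were positive (median 0.04), and of 11 pluripotency markers 9 were (0.16), with none called. Set within experiments, the summed signal of the pluripotency markers was higher in GemKD in 3 of 3, at 24669 against 22783, 25244 against 24799 and 18014 against 17107. Nanog, a core pluripotency factor, had 2434 against 1713, 2418 against 1565 and 341 against 288, a log2 fold change of 0.45 that did not pass in limma (adjusted p rounding to 1 without the block and 0.0658 with it). The list did not move as 1, since Fgf4 was lower in GemKD in each experiment. Fgf4 had 1128 against 1309, 1278 against 1881 and 1594 against 1745, a log2 fold change of -0.30 that was not called either. The sum of the posterior factors was also higher in GemKD in 3 of 3 experiments, at 5841 against 5376, 5227 against 4405 and 2479 against 2258. Gbx2, the brightest of them, made up much of that sum, at 2608 against 2269, 2319 against 2027 and 839 against 739. Of single genes tested, 12.2% were higher in GemKD in all 3 experiments. The other marker lists changed direction between experiments, with neurectoderm at 15820 against 16038, 15848 against 15891 and 16312 against 15649. Endoderm markers had 603 against 679, 611 against 501 and 599 against 585, and streak and mesoderm markers had 887 against 768, 805 against 783 and 685 against 711. Fibroblast markers had 1382 against 1482, 1341 against 1529 and 788 against 722. The part of these sums in the ratios of the 4 factors was not tested.

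Over the 6 arrays, the genes most like each tested factor were found by Pearson's r of the log2 values, as a description, among genes that varied at least 50% as much. For Pax6 these were Plce1, A930024E05Rik and Hoxa5, with r of 0.999, 0.999 and 0.998, and Hoxa5 was below the limit in experiment 3 (15.7 and 13.1). For Lhx2 they were Senp7 (0.999), Elavl4 (0.999) and Kdm6b (0.998). For Fezf2 they were Wdfy3 (0.991), F8a (0.980) and Sema6c (0.978), and for Lhx5 they were Plcxd3 (0.978), Herc2 (0.971) and Emp2 (0.946). Between the factors themselves r was 0.985 for Pax6 and Lhx2 and 0.035 for Pax6 and Lhx5. The 6 arrays are pairs from 3 experiments, and for Pax6 and Lhx2 the points fall into the 2 arrays of experiment 3 and the other 4.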

How the data were processed

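RNA of 6 cultures was labelled with biotin and measured on the Affymetrix Mouse Genome 430 2.0 array, as the protocols in the labels state. For each of 45037 probe sets and each array the authors deposited an intensity on a linear scale. How these intensity values were background-corrected and normalized is not given in the sources used here. Array medians lay between 59.3 and 60.9, and between 1.58% and 1.69% of the values of an array were exactly 1. No further normalization was applied. Gene names came from the annotation of the platform, in which 34945 had 1 gene symbol, 932 several and 9160 none. Entrez identifiers, checked against a RefSeq table of GRCm38.p6, changed 0 symbols.

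Each gene was represented by its probe set of highest mean signal. Genes entered the tests where this mean exceeded 20.1, the 30th percentile over the array, which left 14185 of 18193 genes. Values were log2(signal + 16). Comparisons used limma 3.58.1 in R 4.3.3 (lmFit, eBayes with trend = TRUE; two-sided p-values, adjusted by Benjamini and Hochberg over all genes tested, threshold 0.05). The factors, the lists and the tests were chosen with earlier results of these data known. Named genes were Gmnn, every probe set of the 9 factors, up to 4 genes of each list by the size of their difference, and the 3 genes most like each tested factor. Other genes named were chosen after their values were seen.

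The experiment number pairs the arrays, since the study describes 3 independent experiments, each with its own control. Deviations from the group means correlated with 0.489, 0.472 and 0.714 between the 2 arrays of experiments 1, 2 and 3. Between unpaired arrays of experiments 1 and 2 the correlations were 0.416 and 0.314, not far below the paired ones. Where 1 of 2 unpaired arrays was of experiment 3, they ran from -0.602 to -0.487. The main comparison had no block, and the block was an alternative. Without the block the knockdown fit ignored the pairing and was conservative where experiments differed (SE 0.79 for Pax6, against 0.09 with the block). Others were the hairpin as a covariate, quantile normalization, other limits, averaging the probe sets of each gene, pseudocounts of 1 and 64, no intensity trend, and leaving out arrays or experiments. The fits were tested on simulated data. Nothing in the labels says that arrays of an experiment came from more than 1 culture per arm, so p-values measure the spread between these 6 arrays. Promoter sequences are those of RefSeq for GRCm38.p6.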

Additional observations from a re-analysis of the deposited data

Results flagged for a closer look

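For Fezf1 and Hesx1 the sign of the log2 ratio in experiment 2 differed from that in experiments 1 and 3. Experiment 2 was the only pair of arrays with shRNAmir 9, and experiments 1 and 3 had shRNAmir 11. Fezf1 had a log2 ratio of 0.163 in experiment 2 and of -0.404 and -0.374 in experiments 1 and 3. Hesx1 had -0.052 in experiment 2 and 0.033 and 0.227 in experiments 1 and 3. The difference between the lines was not tested for either gene, and both were below the limit of 20.1 on all 6 arrays.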

How the results depend on the processing

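Results were recomputed under each alternative, and the number of the 9 factors called was unchanged in all of them, 0 for the knockdown, 2 for experiment 3 and 0 for the interaction. With the experiment as a block the knockdown called 5 genes of all tested against 1, and Gmnn passed (log2 -1.44). The block changed no call of the factors. Without an intensity trend 0 genes were called for the knockdown and 0 for the interaction, which without the limit, with the mean of all probe sets or with a pseudocount of 1 called 1 gene instead of 2. Leaving out arrays or experiments gave 0 to 3 genes for the knockdown, and 2 to 503 for the interaction, with 503 without the uninduced array of experiment 1 and 304 without that of experiment 2. In those fits the log2 value in the knockdown ranged from -0.58 to 0.91 for Pax6 and from -0.29 to 0.47 for Lhx2. The negative values came only from leaving out single arrays, which broke a pair in a fit without a block. With a whole experiment left out both genes stayed positive. In experiment 3 the value of Lhx5 ranged from -0.24 to 0.19. In the interaction it ranged from -0.16 to 0.26 for Pax6 and from -0.11 to 0.49 for Lhx5. The uncalled directions in experiment 3 and in the interaction were thus not stable for these genes. Against experiment 1 alone, with the replicate block, Lhx5 had 0.19 in experiment 3, and as the mean of its probe sets Pax6 had -0.41 in the interaction. Causes were not tested. The interaction could not be fitted without an array of experiment 3 or without a whole experiment. With the limit at the 50th percentile or at the olfactory receptor level, 7 factors instead of 5 lay near background. Signal over background limits every statement on these 7.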

Other observations

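Antisense neighbours of 2 of the factors have probe sets of their own and were looked at after their values were seen. Six3os1, the transcript opposite Six3, was below the limit of 20.1 on all 6 arrays, with signals of 5.73, 4.63 and 3.49 in the GemKD and 12, 18.4 and 7.22 in the uninduced arrays of experiments 1, 2 and 3. It was therefore lower in GemKD in each experiment, as the brightest Six3 probe set was, at a similar nearness to background. The other Six3 probe sets did not share this direction. The GemKD signals of Six3os1 lay below its uninduced signals, as those of 2.95% of all 18193 genes did. Pax6os1, opposite Pax6, ran from 20.8 to 40.6 and did not share the low level of Pax6 in experiment 3, where it had 22 in GemKD and 39.6 in the control.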
